A study of Mus musculus with 6 samples.

Results

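The 10 tubular injury marker genes Havcr1, Lcn2, Spp1, Clu, Vcam1, Cdkn1a, Timp1, Sox9, Vim and Krt20 were followed in the renal cortex of male mice at 16 weeks of age. They were chosen by name, as the non-control probes whose gene name on the array is 1 of these symbols, which gave 16 of 56605 probes. The labels place 3 arrays in a group called db/m and 3 in a group called db/db. The db/db mouse is homozygous for a mutation of the leptin receptor on the C57BLKS/J background and becomes obese and diabetic, and the lean heterozygous db/m mouse is its non-diabetic control. The study's methods and design text describe the same arrays differently, as db/db mice that did or did not receive HQD (Huangqi decoction, a herbal preparation) for 8 weeks, and the dose for the arrays is not stated. The groups are therefore called labelled db/m and labelled db/db, a positive difference means a higher level in labelled db/m, and genotype and treatment cannot be told apart from these labels. The labels number 3 samples per group without stating that each came from a separate animal. The methods speak of 3 mice with and 3 without treatment, in the account that differs from the labels. The p-values measure the spread between these samples.

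A tubule cell that is injured loses part of its mature program and switches on genes that are low in the resting cortex. Some of these products are shed or secreted into the urine and serve as injury markers (Havcr1, Lcn2, Clu, Spp1), while others mark adhesion (Vcam1), arrest of the cell cycle (Cdkn1a), control of matrix breakdown (Timp1) or a return to a less mature state from which tubules are repaired (Sox9, Vim). In diabetic kidney disease the same genes are followed as signs of tubular damage beside the glomerular lesion.

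Among the arrays, replicate 2 of labelled db/m correlated best with replicate 3 of labelled db/db (Pearson r = 0.992 across probes) rather than with an array of its own group. The same held for labelled db/db replicate 3, whose r with the arrays of its own group was 0.987 and 0.988. The correlations thus do not single out either array of this pair. Values without labelled db/m replicate 2 are given beside Lcn2, Clu, Cdkn1a, Vim, Krt20 and other genes named with it.

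Of the 10 genes, 9 had a probe bright enough to be tested. None of the 9 differed between the groups at a Benjamini-Hochberg adjusted p under 0.05 in limma, nor at an unadjusted p under 0.05, where 17.7% of the 29890 tested probes lay (6.9% higher and 10.8% lower in labelled db/m). The adjusted threshold was passed by 0 of all tested probes. None of the 9 genes passed the study's screen (a change of 2-fold or more in either direction with an unadjusted p under 0.05), which 0.96% of all probes passed, and in all 9 the groups overlapped, whereas 24.1% of all probes had groups that did not. The adjusted p of the 9 genes ran from 0.376 (Vim) to 0.901 (Timp1). The median difference of the 9 genes was 0.17 on the log2 scale, beside -0.03 over all tested probes. In this scaling 7 of the 9 lay higher and 2 lower, but the split was 5 to 4 after quantile normalization and in the authors' matrix, 6 to 3 with normexp background correction and 4 to 5 with median centring, which moved the median of all probes to -0.21.

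**Figure D1:**
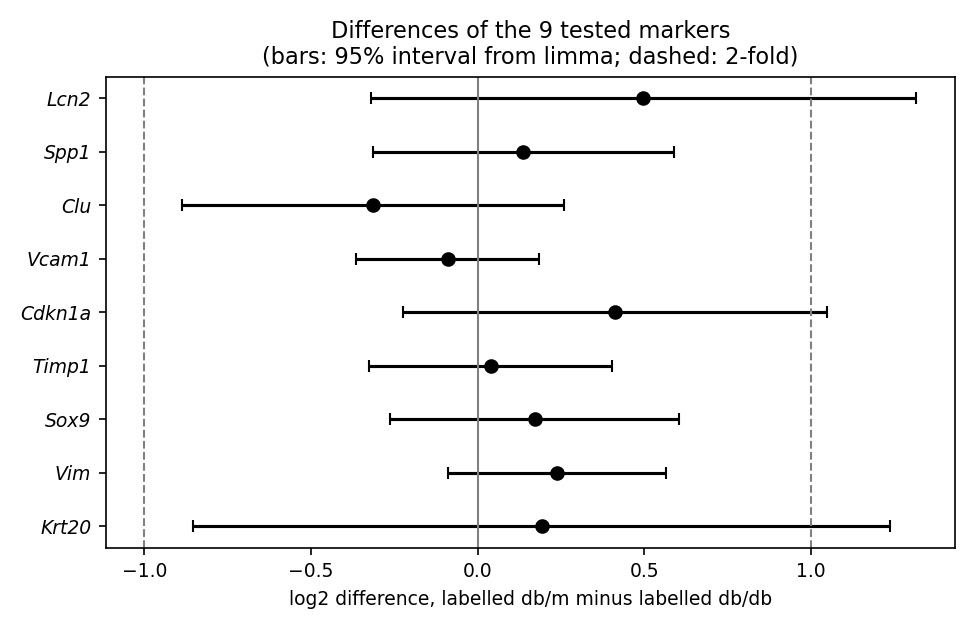
Log2 difference (labelled db/m minus labelled db/db, horizontal axis) of the 9 tested markers, with points for the difference and bars for its 95% interval from limma over 6 arrays. All 9 bars cross 0, and those of Lcn2, Cdkn1a and Krt20 reach past the dashed line of a 2-fold higher level, while the signs of Spp1, Sox9 and Timp1 turn under median centring.

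The intervals show how large a difference these 6 arrays could still hold. The lowest bound was -0.89 (Clu) and the highest 1.32 (Lcn2), and for Lcn2, Cdkn1a and Krt20 a level 2-fold higher in labelled db/m lay inside the interval. The markers also varied more between arrays of a group than a typical probe, with a median SD within groups of 0.26 against 0.19 over all tested probes. Krt20 (higher SD than 96.9% of tested probes), Lcn2 (93.5%), Cdkn1a (86.2%) and Clu (81.5%) were the most variable, and Vcam1 (18.6%) was the steadiest. The same array stood at the edge for many of them. Labelled db/m replicate 2 had the highest value of Krt20, Cdkn1a, Clu, Spp1 and Sox9 among the 6 arrays and the lowest of Lcn2 within its group.

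**Figure D2:**
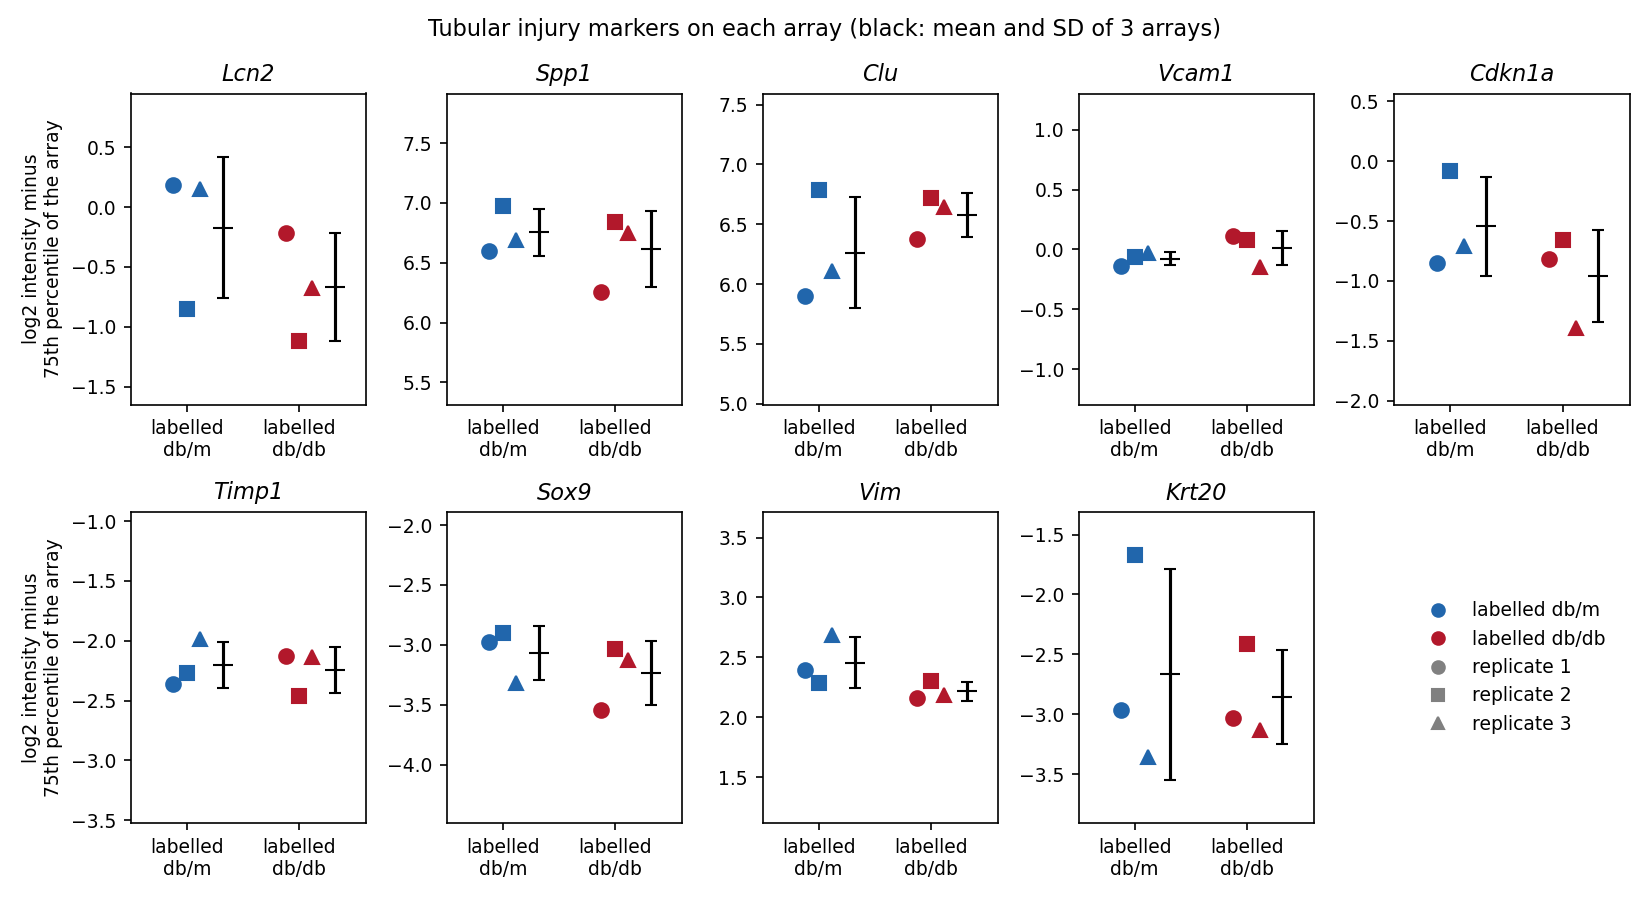
Level of the 9 tested markers on each array (log2 intensity minus the 75th percentile of the array, vertical axes of equal span), with blue for labelled db/m, red for labelled db/db, a symbol for each replicate number and black for the mean and SD of 3 arrays. The groups overlap in every panel, and the square of labelled db/m replicate 2 stands highest of its group for Krt20, Cdkn1a and Clu and lowest for Lcn2.

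Havcr1, the kidney injury molecule of the proximal tubule that is used as a urinary marker, was not detected. Its single probe, A_66_P122767, lies at chr11:46592056-46592115 on the plus strand of mm9, the build of the array's design. The probe is shown because the reading of Havcr1 rests on these 60 bases alone, and the capitals mark an in-frame stop codon that closes its open frame.
Havcr1 A_66_P122767: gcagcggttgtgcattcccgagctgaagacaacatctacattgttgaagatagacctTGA
Its background-subtracted intensity was 12.6, 20.7 and 10.6 in labelled db/m and 22.4, 12.9 and 19.3 in labelled db/db. The lowest intensity called well above background was 57.6, 54.5 and 48.8 on the former and 65.5, 59.9 and 48.4 on the latter. Havcr1 was thus below the detection limit on all 6 arrays, so that no fold is given, and a level under that limit could not be compared between the groups.

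**Figure D3:**
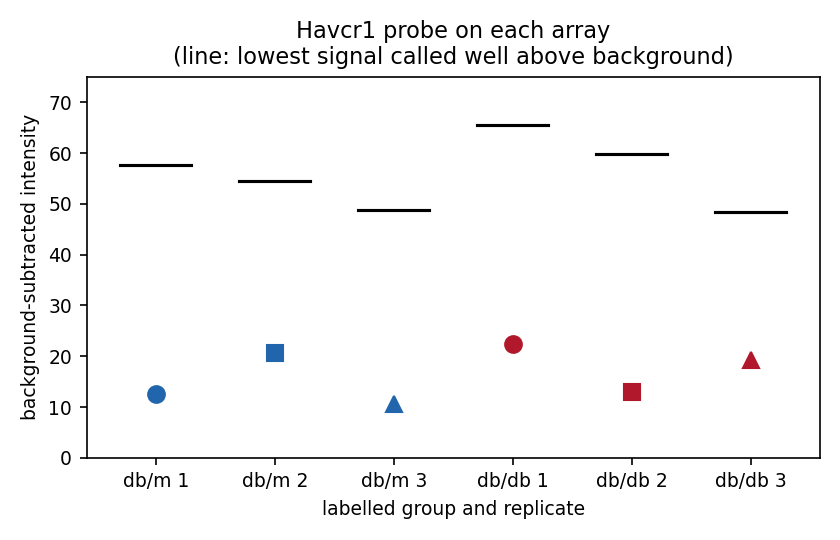
Background-subtracted intensity of the Havcr1 probe on each array (points, with blue for labelled db/m and red for labelled db/db) beside the lowest intensity that the scanner software called well above background on that array (black lines). The points lie between 10.6 and 22.4 and the lines between 48.4 and 65.5.

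Lcn2 encodes neutrophil gelatinase-associated lipocalin, an iron-scavenging protein that injured distal tubules and neutrophils release. Its brighter probe, A_55_P2070869, lies at chr2:32240199-32240258 on the minus strand of mm9. On the arrays labelled db/m its level was 0.18, -0.85 and 0.15 in log2 units relative to the 75th percentile, and in labelled db/db it was -0.22, -1.12 and -0.67. Labelled db/m replicates 1 and 3 were the highest of the 6 and labelled db/db replicate 2 the lowest, with labelled db/m replicate 2 inside the range of the other group. The difference was 0.50 (SE 0.34, 95% interval -0.32 to 1.32, limma adjusted p = 0.442), a ratio of 1.41 with an interval from 0.80 to 2.49. Without labelled db/m replicate 2 it was 0.84 (past the unadjusted but not the adjusted threshold, limma adjusted p = 0.151), and that array set alone against labelled db/db gave -0.19 (limma adjusted p = 0.918). The sign of the Lcn2 difference therefore depended on which labelled db/m arrays were used.

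A second Lcn2 probe, A_51_P510156, at chr2:32241037-32241281 on the minus strand of mm9, spans 245 bases of the genome with 60 bases of sequence and so crosses an intron. It is shown because it reads spliced RNA at another site than the first probe.
Lcn2 A_51_P510156: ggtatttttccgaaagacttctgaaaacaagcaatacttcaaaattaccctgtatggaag
It was well above background on 4 of 6 arrays and was not tested. Its intensity was 242, 51.0 and 180 in labelled db/m and 105, 36.0 and 89.5 in labelled db/db, with replicate 2 of either group below the detection limit and so without an order. On the 4 arrays where it was detected, those labelled db/m were the brighter pair on both probes. These 4 leave out labelled db/m replicate 2, which lay inside the range of the other group on the first probe. Both probes read the same RNA samples, so the second adds no replicate.

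Clu encodes clusterin, a secreted chaperone that rises in damaged tubules. Its tested probe, A_55_P2017929, lies at chr14:66600325-66600382 on the plus strand of mm9. Its level was 5.90, 6.79 and 6.11 in labelled db/m and 6.37, 6.72 and 6.64 in labelled db/db. Labelled db/m replicates 1 and 3 were the lowest of the 6 arrays and labelled db/m replicate 2 the highest. The difference was -0.31 (SE 0.24, 95% interval -0.89 to 0.26, limma adjusted p = 0.482), and leaving out replicate 2 of labelled db/m gave -0.58 (likewise past the unadjusted but not the adjusted threshold, limma adjusted p = 0.129), while that array alone against labelled db/db gave 0.21 (limma adjusted p = 0.831). Clu thus ran opposite to Lcn2 over the arrays, with a Pearson r of -0.95 between them over 6 arrays that share their slides and scaling, given as a description. A second Clu probe, for another transcript, was not detected on any array.

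The arrays that were high in Lcn2 and low in Clu also held more signal of the inner medulla and of the uroplakins, and less of the proximal tubule. The summed level of the 10 proximal tubule markers, as intensity over the 75th percentile, was 935, 1501 and 1194 in labelled db/m. In labelled db/db it was 1358, 1580 and 1391. Trp63, from the urothelial list, did not follow the uroplakins. The inner medulla markers Slc14a2 (the urea transporter of the collecting duct), Aqp4 (a water channel of its basolateral membrane) and Fxyd4 (a regulator of the sodium pump) were tested in 3 of 3 cases and lay higher in labelled db/m at an unadjusted p under 0.05 in 3 of 3, by 1.59, 1.48 and 1.32. With all arrays their limma adjusted p was 0.242, 0.244 and 0.279, so that none passed the adjusted threshold. Of all tested probes, 6.9% lay higher in labelled db/m at an unadjusted p under 0.05. Without labelled db/m replicate 2 the differences of these markers were 2.18, 2.06 and 1.99 (limma adjusted p = 0.0611, 0.0509 and 0.0447). That array alone gave 0.41, 0.32 and -0.03 for these markers. Their summed level, as intensity over the 75th percentile, was 58.4, 15.5 and 65.4 in labelled db/m and 18.2, 13.6 and 14.8 in labelled db/db. Most of it came from Fxyd4, which held 51.3, 13.6 and 59.9 of these units in the former and 16.8, 12.3 and 13.0 in the latter. Labelled db/m replicates 1 and 3 stood apart from the other 4 arrays.

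The uroplakins, membrane proteins of the urothelium that lines the renal pelvis, put labelled db/db replicate 1 beside these arrays. Upk1a was tested and was at 0.73, -1.80 and 1.92 in labelled db/m and at 0.47, -1.17 and -0.65 in labelled db/db. Upk3a was at 0.16 and 1.28 on labelled db/m replicates 1 and 3 and at -0.53 and -3.39 on labelled db/db replicates 1 and 3, and it was below detection on replicate 2 of either group. Upk1b was detected on 3 arrays, at -1.79 and -0.36 on labelled db/m replicates 1 and 3 and at -2.57 on labelled db/db replicate 1, and Upk2 on the same 3, at -2.19, -0.75 and -3.53. Upk3b was detected on 2, at -1.60 and -1.08 on labelled db/m replicates 1 and 3. Lcn2 was likewise higher on these labelled db/m arrays and then on labelled db/db replicate 1 than on the rest. The part of inner medulla, urothelial or proximal tubule tissue in the Lcn2 and Clu values was not tested. In a piece of tissue, more cells of a type and more RNA per cell cannot be told apart.

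**Figure D4:**
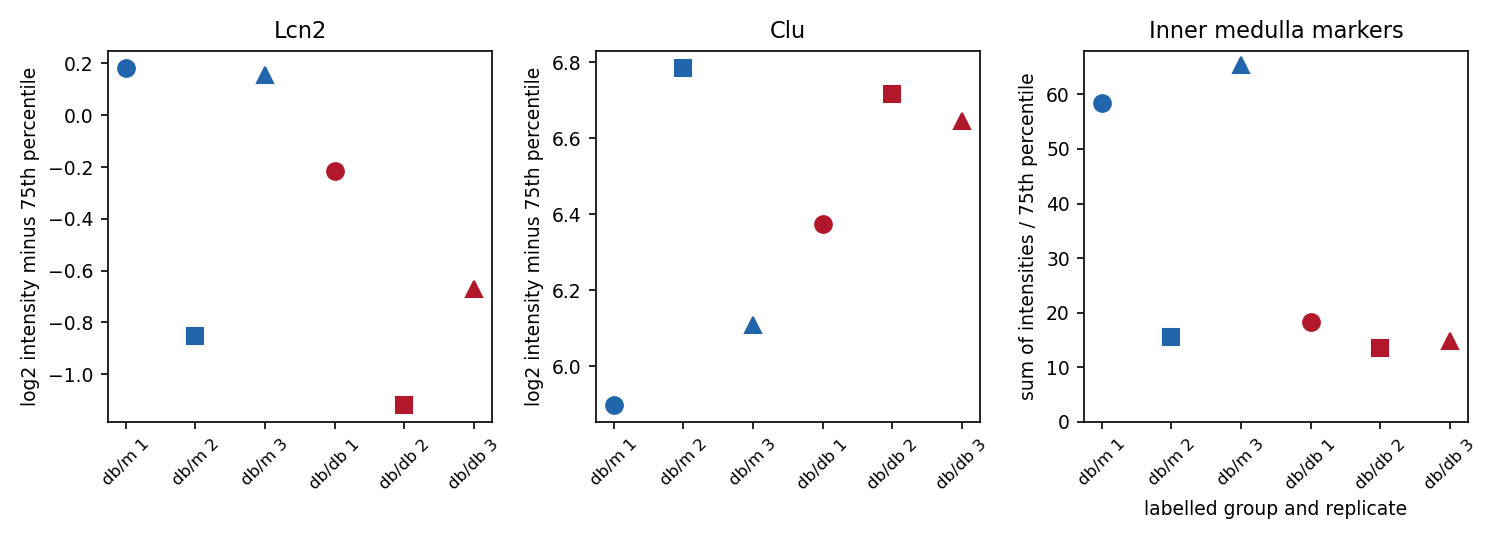
Level of Lcn2 and of Clu (log2 intensity minus the 75th percentile of the array) and the summed intensity of the inner medulla markers Slc14a2, Aqp4 and Fxyd4 (over the 75th percentile) on each of the 6 arrays, with blue for labelled db/m and red for labelled db/db. Labelled db/m replicates 1 and 3 hold the highest Lcn2, the lowest Clu and the highest medulla signal (58.4 and 65.4, against 13.6 to 18.2 on the other 4 arrays), most of which is Fxyd4.

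The genes whose level tracked that of Lcn2 most closely over the 6 arrays were Zfp521 (Pearson r = 0.995), a zinc finger protein, Rbm20 (0.993), a splicing factor, and Gm3364 (0.992), a predicted gene. They were picked as the highest of 15193 candidate genes, of which 378 had an r above 0.9 with Lcn2 over these 6 points. The differences of the 3 genes were 0.44, 0.39 and 0.42.

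Spp1 encodes osteopontin, a secreted phosphoprotein of the distal nephron that spreads to other segments after injury. Its probe, A_51_P358765, lies at chr5:104869788-104869847 on the plus strand of mm9. Its level was 6.60, 6.97 and 6.69 in labelled db/m and 6.26, 6.84 and 6.75 in labelled db/db, with labelled db/db replicate 1 the lowest and the other 5 arrays between 6.60 and 6.97. The difference was 0.14 (SE 0.19, 95% interval -0.31 to 0.59, limma adjusted p = 0.696) and turned to -0.05 with median centring and to -0.04 without labelled db/db replicate 1. Its intensity was between 68834 and 101738 and was not saturated on any array.

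Vcam1 encodes the vascular cell adhesion molecule, which failed-repair tubule cells and activated endothelium display. Its level was -0.14, -0.07 and -0.03 in labelled db/m and 0.11, 0.07 and -0.15 in labelled db/db. The 6 arrays lay within 0.26 of each other, with the lowest and the highest value both in labelled db/db. The difference was -0.09 (SE 0.12, 95% interval -0.37 to 0.18, limma adjusted p = 0.673), which bounds the ratio between 0.78 and 1.14. As single arrays were left out it ran from -0.17 (without labelled db/db replicate 3) to -0.04 (without replicate 1 of that group). A second Vcam1 probe, A_52_P520495, at chr3:115828953-115829012 on the minus strand of mm9, stayed below detection on 6 of 6 arrays, with intensities from 38.2 to 56.8. It is printed because it gave no detectable signal, while the other probe of the gene, A_51_P210956, at chr3:115813216-115813275, was detected on all 6 arrays.
Vcam1 A_52_P520495: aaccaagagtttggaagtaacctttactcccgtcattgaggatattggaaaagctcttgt

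Cdkn1a encodes an inhibitor of cyclin-dependent kinases that p53 induces and that holds injured tubule cells out of the cell cycle. Its tested probe, A_51_P363947, lies at chr17:29237377-29237436 on the plus strand of mm9. Its level was -0.85, -0.08 and -0.71 in labelled db/m and -0.82, -0.66 and -1.39 in labelled db/db. Labelled db/m replicate 2 was the highest and labelled db/db replicate 3 the lowest, and the other 4 arrays lay between -0.85 and -0.66 with both groups mixed. The difference was 0.41 (SE 0.27, 95% interval -0.22 to 1.05, limma adjusted p = 0.418), and leaving out either extreme array brought it to 0.18 (the highest left out) or 0.19 (the lowest). The highest array alone against labelled db/db gave 0.88 (limma adjusted p = 0.693), for an array picked out because it was the highest of the 6. A probe for another Cdkn1a transcript, NM_001111099, was well above background on 1 array, labelled db/db replicate 3, at an intensity of 61.0, the array on which the first probe was lowest. The third Cdkn1a probe was not detected on any array.

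Timp1 encodes a secreted inhibitor of matrix metalloproteinases that is raised in fibrosis. Its level was -2.36, -2.27 and -1.98 in labelled db/m and -2.12, -2.46 and -2.14 in labelled db/db. The values of the groups were interleaved, with a difference of 0.04 (SE 0.15, 95% interval -0.33 to 0.40, limma adjusted p = 0.901) whose sign turned in 8 of 21 alternatives. The probe, A_52_P87713, lies at chrX:20451675-20451733 on the plus strand of mm9 and stands alone for this gene.
Timp1 A_52_P87713: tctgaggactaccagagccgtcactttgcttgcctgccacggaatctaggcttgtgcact

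Sox9 encodes a transcription factor that surviving tubule cells switch on during repair. Its level was -2.98, -2.90 and -3.32 in labelled db/m and -3.54, -3.04 and -3.13 in labelled db/db. Labelled db/db replicate 1 was the lowest array, and the other 5 lay between -3.32 and -2.90. The difference was 0.17 (SE 0.18, 95% interval -0.26 to 0.60, limma adjusted p = 0.611), and it was -0.01 after quantile normalization and in the authors' matrix and -0.02 with median centring. It ran from 0.02 without labelled db/db replicate 1 to 0.30 without labelled db/m replicate 3. The probe that was tested, A_55_P2745144, lies at chr11:112646642-112646701 on the plus strand of mm9. It is printed because the other Sox9 probe, at chr11:112647560-112647619, was not detected on any array.
Sox9 A_55_P2745144: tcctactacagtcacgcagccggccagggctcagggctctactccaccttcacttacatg

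Vim encodes vimentin, an intermediate filament of mesenchymal cells, leukocytes and dedifferentiated tubule cells. Its probe, A_51_P392687, lies at chr2:13504232-13504291 on the plus strand of mm9. Its level was 2.39, 2.28 and 2.69 in labelled db/m and 2.16, 2.31 and 2.19 in labelled db/db. Labelled db/m replicates 1 and 3 were above all arrays labelled db/db, and replicate 2 lay among them. The difference was 0.24 (SE 0.14, 95% interval -0.09 to 0.56, limma adjusted p = 0.376), which bounds the ratio between 0.94 and 1.48. Of the tested members, Vim had the smallest p, and it was higher in labelled db/m in all 21 alternatives, from 0.05 to 0.33, and passed the unadjusted threshold in 0 of them. Without labelled db/m replicate 2 it was 0.32 (limma adjusted p = 0.234).

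Markers of leukocytes, which also hold vimentin, lay mostly on the same side. Of 10 leukocyte markers, 9 were tested, and 4 lay higher and 1 lower in labelled db/m at an unadjusted p under 0.05, where 6.9% of all tested probes lay higher and 10.8% lower. Without labelled db/m replicate 2 these counts were 5 and 1. Among them Itgam, an integrin of myeloid cells, was higher by 0.70 and Ptprc, the common leukocyte antigen, by 0.55, while Cd74, the invariant chain of antigen presentation, lay lower at -0.45. The B-cell gene Cd79a was not detected on any array. The summed level of the list was 48.0 to 67.7 in labelled db/m and 36.9 to 46.1 in labelled db/db, without overlap, and its part in the Vim value was not tested. The list of 8 fibroblast and mural cell markers, which are other sources of vimentin and Timp1, had a summed level of 29.1 to 44.0 in labelled db/m and 29.9 to 40.6 in labelled db/db, with 0 of 8 at an unadjusted p under 0.05.

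Krt20 encodes a keratin of the urothelium that injured proximal tubule cells express. Its probe, A_52_P445360, lies at chr11:99289776-99289835 on the minus strand of mm9. Its level was -2.96, -1.67 and -3.36 in labelled db/m and -3.03, -2.41 and -3.13 in labelled db/db. Labelled db/m replicate 2 was the highest and replicate 3 of the same group the lowest, a range of 1.69 over the 6 arrays. The difference was 0.19 (SE 0.44, 95% interval -0.85 to 1.24, limma adjusted p = 0.823), the widest interval of the 9 genes. Without labelled db/m replicate 2 it was -0.30 (limma adjusted p = 0.489), and that array alone against labelled db/db gave 1.18 (limma adjusted p = 0.681), again for the array that was the highest of the 6. The uroplakin Upk1a did not follow Krt20 and was lowest on the array where Krt20 was highest. Of 8 urothelial markers 3 were tested, and their summed level was 9.76 to 12.8 in labelled db/m and 9.01 to 9.86 in labelled db/db. Trp63, a transcription factor of basal epithelium, held 7.69 to 9.20 and 7.92 to 9.30 of these units with a difference of -0.02, so that the sum does not show the uroplakins, of which 4 were detected on only some arrays. Krt5, a basal keratin, lay higher by 1.53 (limma adjusted p = 0.259), and Krt13 was not detected on any array.

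Among the members, the closest pairs over the 6 arrays besides Lcn2 and Clu were Spp1 with Sox9 (Pearson r = 0.83) and Cdkn1a with Krt20 (0.78). Both pairs share an extreme array, labelled db/db replicate 1 as the lowest for the former and labelled db/m replicate 2 as the highest for the latter. These values describe 6 points of common slides and scaling.

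The wider program of tubular injury and repair was read from 50 other genes (keratins, cytokines, annexins, S100 proteins, fibrinogen chains, growth factors and regulators of repair), of which 46 were tested. At an unadjusted p under 0.05, 4 lay higher and 4 lower in labelled db/m, which is 17.4% of the tested genes beside the 17.7% of all probes, and 0 passed the adjusted threshold in limma. Their median difference was 0.10, with 32 genes higher and 14 lower, beside a median of -0.03 over all tested probes. After median centring it was -0.08, with 19 higher and 27 lower, beside -0.21 over all tested probes. The median of the list lay above that of all probes in both scalings. Mmp7, a matrix metalloproteinase of injured tubules, was not detected on any array.

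The genes of fibrinogen, which the injured tubule makes and the liver secretes into the blood, lay lower in labelled db/m together. Fgb, the beta chain, was at -2.83, -2.57 and -2.88 in labelled db/m and at -1.39, -1.81 and -1.98 in labelled db/db, so that the groups did not overlap. The difference was -1.03 (SE 0.18, 95% interval -1.46 to -0.60, limma adjusted p = 0.240). Fgg, the gamma chain, was at 1.36, 1.86 and 1.27 against 2.55, 2.79 and 2.36 in the same order, again without overlap, with a difference of -1.06 (SE 0.19, 95% interval -1.53 to -0.60, limma adjusted p = 0.240). Fga, the alpha chain, was at -1.97, -1.77 and -2.47 against -1.20, -1.69 and -1.26, with a difference of -0.68 (limma adjusted p = 0.241) and a second probe at -0.64. Fgb and Fgg had an unadjusted p under 0.05 in all 21 alternatives and Fga in 15 of 21. Among these, slide as a fixed block rests on the slide that held 1 array of each group, and it gave -0.85 for Fgb, -0.995 for Fgg and -0.71 for Fga, the last not past the threshold. Labelled db/m replicate 2 lay with its group for Fgb, while for Fgg its 1.86 lay midway between the nearest arrays of either group, and that array alone gave -0.70 against -1.25 without it.

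Prom1, which marks progenitor-like tubule cells, was the other gene on the lower side, at -0.37 (limma adjusted p = 0.248). It passed the unadjusted threshold in 14 of 21 alternatives, and slide as a fixed block, where it was -0.21, was 1 of those where it did not. Its other probes gave -0.37 (limma adjusted p = 0.550) and -0.70 (limma adjusted p = 0.293), on the other side of the unadjusted threshold.

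On the higher side, Ccl2, the chemokine that draws monocytes, was at -2.18, -2.22 and -1.57 in labelled db/m and at -3.39, -2.44 and -2.87 in labelled db/db. The groups did not overlap, and the difference was 0.91 (SE 0.28, 95% interval 0.24 to 1.59, limma adjusted p = 0.240), with an unadjusted p under 0.05 in 18 of 21 alternatives, slide as a fixed block (0.70) being 1 of those where it was lost. Il34, a macrophage growth factor of tubule cells, was higher by 0.59 (limma adjusted p = 0.269) and Gdf15, a stress-induced member of the TGF-beta family, by 0.47 (limma adjusted p = 0.269). The arrays of the groups overlapped for Il34 and Gdf15. Il34 was 0.84 without labelled db/m replicate 2 (limma adjusted p = 0.0903) and 0.09 for that array alone (limma adjusted p = 0.931). Gdf15 passed the unadjusted threshold in 12 and Il34 in 13 of 21 alternatives, and Gdf15 was 0.16 with slide as a fixed block and 0.28 with median centring, past it in neither.

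**Figure D5:**
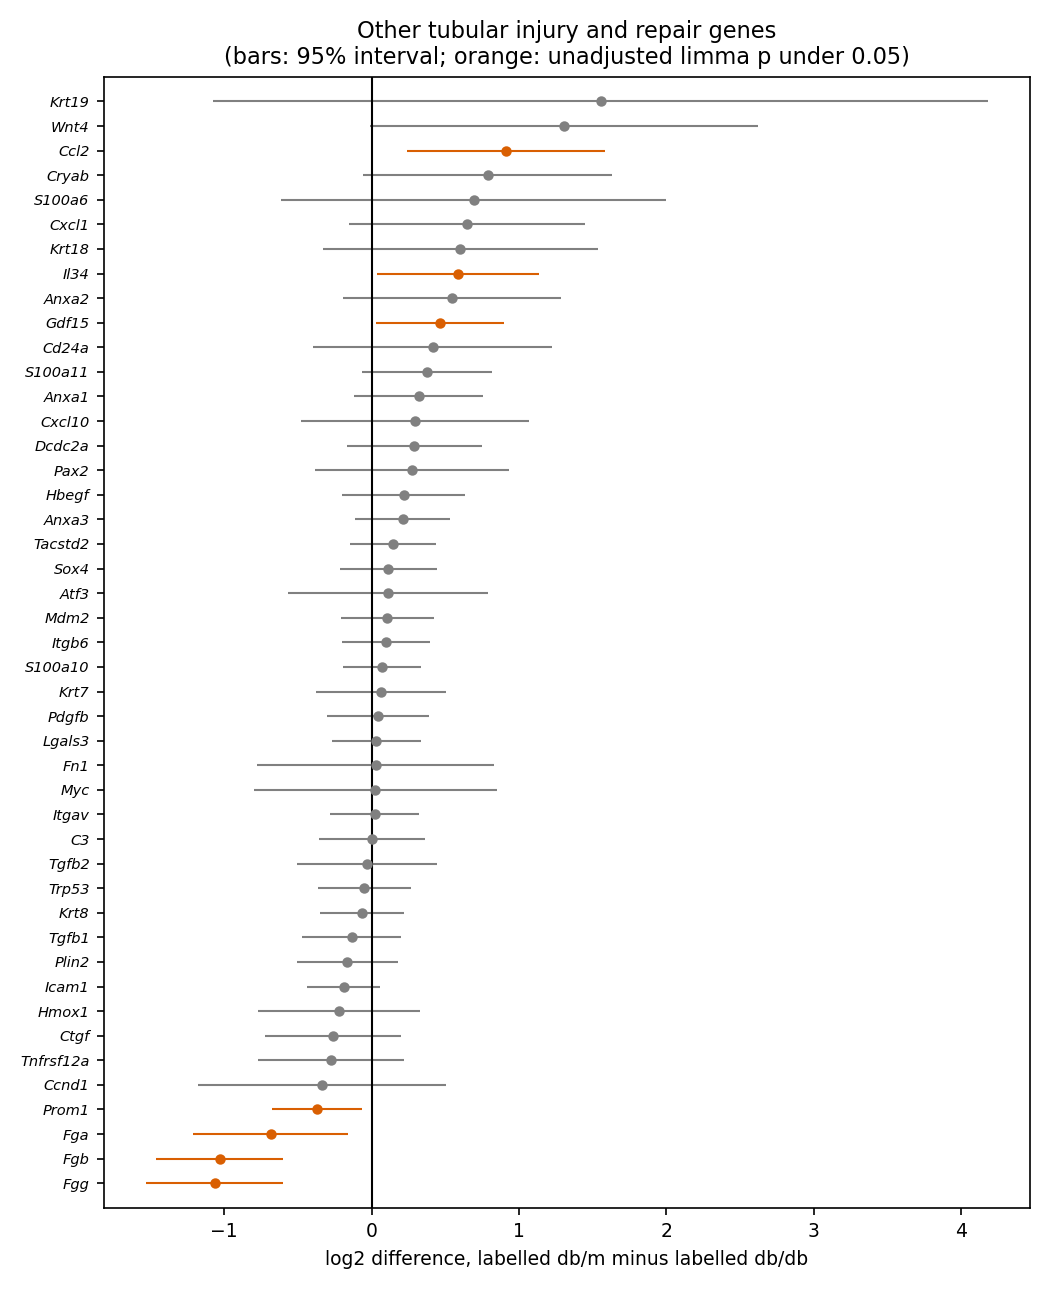
Log2 difference (labelled db/m minus labelled db/db, horizontal axis) of 45 of the 46 tested injury and repair genes outside the 10 markers, sorted by size, with bars for the 95% interval from limma over 6 arrays. Orange marks the 7 genes shown with an unadjusted p under 0.05, with Fgg, Fgb, Fga and Prom1 on the lower side and Ccl2, Il34 and Gdf15 on the higher side, and 0 of the 46 passed the adjusted threshold.

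The counts moved with single arrays. With labelled db/m replicate 2 left out, 15 of the 46 genes lay higher and 3 lower at an unadjusted p under 0.05, where 23.2% of all probes did in either direction, and leaving out replicate 3 of that group gave 1 and 2. Leaving out replicate 3 of labelled db/db also gave 1 and 2, and leaving out its replicate 1 gave 4 and 2. The share of all probes moves with the array left out as well, being 17.7% with all 6 arrays. It is not given here for the fits without replicate 3 of either group or without labelled db/db replicate 1. Equal counts in those fits need not stand equally far from it. These counts were therefore not read as a result about the injury genes. Krt19, an embryonic keratin of dedifferentiated and ductal epithelium, and Wnt4, a signal of collecting duct and repair, had the largest differences of the list and were picked out after their values were seen. Krt19 was at -0.32, -2.98 and 0.78 in labelled db/m and at -0.66, -3.61 and -2.92 in labelled db/db, a difference of 1.55 with an interval from -1.07 to 4.18, and 2.62 without labelled db/m replicate 2 (limma adjusted p = 0.163). Wnt4 was at -0.99, -2.60 and -0.41 against -2.15, -3.07 and -2.69, a difference of 1.31 with an interval from -0.01 to 2.62, and 1.94 without that array (limma adjusted p = 0.0747). Both were highest on labelled db/m replicates 1 and 3, as the inner medulla markers and the uroplakins were. For Krt19, labelled db/db replicate 1 came close to replicate 1 of labelled db/m, as for Upk3a and unlike the summed inner medulla markers. Krt19 was below detection on 1 of the 6 arrays, and the part of either tissue in these values was not tested.

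As for the arrays themselves, markers of proximal tubule, thick ascending limb, distal convoluted tubule, collecting duct and podocytes were well above background on all 6 arrays. So were the 3 inner medulla markers, and detection of these lists cannot check the renal cortex label. Between 53.7 and 60.9% of spots were well above background. Most of these markers outside the inner medulla list did not pass the unadjusted threshold with all 6 arrays. Exceptions were Slc12a3, the thiazide-sensitive transporter of the distal convoluted tubule, at -0.91, and Slc22a8, an organic anion transporter of the proximal tubule, at -0.56. Of the 10 proximal tubule markers, 9 lay lower and 1 higher in labelled db/m. Without labelled db/m replicate 2, 1 of these 10 passed higher and 6 lower, beside the share of all probes given above for that fit. Counts higher and lower were then 2 and 0 of 4 for thick ascending limb and 0 and 1 of 3 for distal convoluted tubule. They were 3 and 0 of 7 for collecting duct and 0 and 0 of 6 for podocytes. Of the 3 slides, 1 held replicate 1 of labelled db/m beside replicate 3 of labelled db/db, and the other two each held a pair of arrays of the same group. On the slide that held both groups, the difference between that pair of arrays, in the same direction, was 0.86 for Lcn2, -0.75 for Clu, 0.54 for Cdkn1a, 0.20 for Vim, 0.17 for Krt20, 0.15 for Sox9, 0.01 for Vcam1, -0.15 for Spp1 and -0.22 for Timp1, from 1 array of each group and with no replicate. With 3 arrays in each group, an exact two-sided permutation test cannot give a p below 0.1.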

How the data were processed

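RNA of 6 renal cortex samples, 3 per labelled group, was hybridised in 1 colour (Cy3) to Agilent mouse arrays with 62976 spots. The authors deposited the scanner output of Agilent Feature Extraction 10.7.1.1, an intensity per spot from which the software had subtracted the background and trends within the array, with no scaling from array to array. A matrix of log2 values was deposited too, whose normalization is not given in the sources used here and whose columns shared nearly the same median (6.11) and followed the array intensities in the same direction (Pearson r from 0.998 to 1.000), and it served as an alternative. The values of labelled db/m replicate 1 are written with 3 significant digits and 71 gene names of its file differ, and gene names are those of the other 5 files. Coordinates are those of the array design (mm9), and the exon or UTR that a probe lies in was not analysed here.

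Control spots were removed, as were 135 probes whose spots on some array all carried outlier flags. Repeated spots were averaged, and each array was scaled by subtracting its 75th percentile on the log2 scale. A probe was tested when well above background on 3 of 3 arrays of at least 1 group, which left 29890 probes. Those of them with a gene symbol stood for 16027 genes. No spot was saturated. Groups were compared with lmFit and eBayes of limma 3.58.1 in R 4.3.3, with Benjamini-Hochberg adjustment over all tested probes, and the procedure was tested on simulated data. Arrays carry no counting depth, and their number limits the precision. The brightest tested probe stood for a gene, and others are given where their sign or their side of 0.05 differed. Each marker is named, as are the other injury genes with an unadjusted p under 0.05 and, of the cell type lists, up to 3 genes with the smallest p and those not detected. The result of 1 further injury gene is not reported here, and it stays in the counts. The members and lists were chosen with earlier results of these data known, and so no test of a list was made. Alternatives were other scalings, background corrections, filters on dim probes, variance models, slide as a block and replicate number as a block. The variance models included the equal-variance test that one-way ANOVA takes between 2 groups, though the methods name no test for the arrays. Others left out each array or took the mean over a gene's probes. A further one, chosen after seeing the data, set labelled db/m replicate 2 alone against labelled db/db.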

Additional observations from a re-analysis of the deposited data

How the results depend on the processing

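None of the 10 markers passed the adjusted threshold in limma under any of the 21 alternatives, and at an unadjusted p under 0.05 the count was 0 in 18 of them. With the replicate number as a block, 1 marker was higher (Lcn2, 0.50, past the unadjusted threshold, limma adjusted p = 0.198). The numbers were not taken to pair the arrays, since same-numbered arrays deviated together with r of 0.35, 0.15 and 0.05. Leaving out 1 array at a time gave 0 to 1 markers higher and 0 to 1 lower, the 1 on each side being Lcn2 and Clu without labelled db/m replicate 2. Labelled db/m replicate 2 alone against labelled db/db, chosen after seeing the data and assuming that this lone array varies like the other group, gave 2 higher (Cdkn1a and Krt20, for which this array is the highest of the 6), 1 of them past the screen (Krt20), and turned Lcn2 to -0.19, Clu to 0.21 and Timp1 to -0.024.

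Timp1 also turned to -0.10 after quantile normalization and in the authors' matrix, -0.15 with median centring, -0.091 with normexp and -0.22 with slide as a fixed block, and ran from -0.072 to 0.12 as single arrays were left out. Sox9 turned to -0.0098 after quantile normalization, -0.0099 in the matrix and -0.016 with median centring. Spp1 turned to -0.050 with median centring and -0.15 with slide as a fixed block, and ran from -0.043 to 0.25 as arrays were left out. Vcam1 turned to 0.012 with slide as a fixed block, and Krt20 ran from -0.30 to 0.54 as arrays were left out. The median over the 9 markers was -0.02 with median centring, where that of all probes was -0.21, and between 0.02 and 0.27 in the others.

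Of the other injury genes, 4 of 46 were higher at an unadjusted p under 0.05 in the fit described above. There 6.9% of all probes lay higher, and 17.7% passed in either direction. The count higher was 6 with normexp and 6 with the replicate number as a block. It was 5 with the filter on all 6 arrays, dim spots at the detection limit, the trended variance and slide as a random block. It was 2 with median centring and 2 without the filter on dim probes, where 22.3% and 8.74% of all probes passed in either direction. By the equal-variance test the count higher was 0. The share of all probes higher is not given for these alternatives, so the counts were not set against it. Slide as a fixed block gave 2 higher and 2 lower (9.71% of all, from the slide with 1 array of each group). The share of all probes thus moved with the setting too, and the counts were not read as a change of the injury genes. Leaving out 1 array gave 1 to 15 higher and 2 to 4 lower. Of all probes, 59 passed the adjusted threshold with replicate 2 of labelled db/m left out and 123 with replicate 3 of labelled db/db left out, and 0 of them were markers. The causes were not tested.

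Signal over background limits Havcr1 and the second probes of Lcn2, Clu, Vcam1, Cdkn1a and Sox9, which lay near or below detection.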
